A study of Saccharomyces cerevisiae with 56 samples.

Results

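R312 is an arginine of PSD-95, at the start of the block mutated in the third PDZ domain, and the variants described here are the double substitutions that change it together with 1 further residue. Members were taken from the deposited table as protein variants with exactly 2 changed residues, 1 of them R312, no stop codon, and an error under 50, so they were selected on this error and on sequence. The error limit was the only measured value in this choice, and it removed 0 members: the highest member error was 1.26 in the binding of N, and the 8 entries past the limit were wild-type entries with a placeholder error of 100. This gave 26828 entries, of 338385 for all double missense variants and 384696 for the whole table. They covered 4316 of the 4332 substitution pairs that 19 new residues in place of R312 and 19 at each of 12 partner positions allow, and 1196 of these pairs were measured in all 8 sets.

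The cells were Saccharomyces cerevisiae of strain BY4742, grown in competition in methotrexate for about 5 generations at 30 °C. The groups were the domain with the extension the labels call N, with the one called C, with both (NC), and the domain alone (PDZ3). Each was read by abundancePCA, in which growth reports how much of the domain is made, and by bindingPCA, in which growth reports its binding to a partner. Construct and assay together make 8 sets, for each of which 3 input and 3 output libraries, beside 1 of the wild type, were sequenced. The deposited table merges a set into 1 score with 1 error per variant. What the extensions consist of and which ligand was used are not stated in the labels, and the assays report on the domain in yeast rather than on full-length PSD-95.

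PSD-95 is a scaffold protein of excitatory synapses. Its PDZ domains bind the C-terminal tails of other proteins, which add a strand to the sheet of the domain. The tail lies in a groove between strand 2 and helix 2, and a loop with the residues G-L-G-F (here with L323, G324 and F325) holds the terminal carboxylate. Substitutions whose effects add up give a double with the sum of both effects. A double below that sum is more harmful than its singles predict, and one above it is less harmful.

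The score sets each variant against the wild type, on a log scale of unstated base. The wild type itself scored from -0.00449 in PDZ3 abundance to 0.0114 in C binding. Scaled values below are the score divided by the size of the median single nonsense score of the same set. The wild type thus lies near 0, and -1 is a protein cut short. That size was 0.901 in N, 1.23 in C, 1.07 in NC and 1.17 in PDZ3 for abundance, and 1.485, 1.098, 0.891 and 1.52 in the same order for binding. Errors after ± are standard errors from those the authors give. The read depth behind each score is unknown, and the number of merged cultures is the same for all variants. The sets held 3311 members in N, 4111 in C, 3358 in NC and 2430 in PDZ3 for abundance, and 3163, 3944, 3556 and 2955 for binding. The median member error was 0.173, 0.217, 0.191 and 0.236 score units in abundance and 0.347, 0.117, 0.121 and 0.242 in binding, again for N, C, NC and PDZ3. As a check, doubles of an R312 substitution with a stop codon (108 to 212 per set) had medians from -1.09 to -0.772. Around the median of their stop position they spread by 0.711 to 1.34 times their own errors in 6 sets, by 1.65 times in PDZ3 abundance and by 2.27 times in C binding.

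R312 alone was more sensitive than a typical residue in every set, and the median of its substitutions lay closest to the wild type in NC. The median over its 19 single substitutions was -0.342 in N, -0.169 in C, -0.0482 in NC and -0.527 in PDZ3 for abundance. Over all single missense substitutions the medians were -0.101, -0.0632, -0.0252 and -0.212. In binding the 19 had a median of -0.669 in N, -0.168 in C, -0.0818 in NC and -0.876 in PDZ3, against -0.192, -0.0670, -0.0398 and -0.377 over all singles. R312K, which keeps the positive charge, was the mildest in 7 of the 8 sets. Its abundance was 0.0135 ± 0.00613 in N, 0.0329 ± 0.00795 in C, 0.0383 ± 0.00636 in NC and 0.0115 ± 0.00856 in PDZ3. Its binding was lower, at -0.257 ± 0.0149 in N, -0.0584 ± 0.00491 in C, -0.0351 ± 0.00558 in NC and -0.281 ± 0.0262 in PDZ3. In NC binding the highest was R312F, at 0.0398 ± 0.00682.

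The next mildest in the abundance of PDZ3 were R312H at -0.253, R312Y at -0.266 and R312Q at -0.366. The most harmful there were R312W at -1.51, R312D and R312P at -1.06 each, and R312L at -0.883. R312P, which replaces the arginine by the residue that bends a protein backbone, was the lowest in the abundance of N (-0.966) and in the binding of N (-1.04), C (-0.595) and NC (-0.450). R312W was the lowest in the abundance of C (-0.853), NC (-0.463) and PDZ3. R312M was the lowest in PDZ3 binding at -1.40 ± 0.0311, though in N, C and NC binding it stood at -0.771, -0.137 and -0.0791. R312W in PDZ3 abundance and R312M in PDZ3 binding thus lay furthest below the nonsense level, and all doubles that carry them are compared with these low values.

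In every set, and least so in PDZ3 binding where it was -0.876, the median R312 single lay above the median of the doubles. Their median was -0.907 in N, -0.844 in C, -0.614 in NC and -1.05 in PDZ3 for abundance, against -0.646, -0.559, -0.173 and -0.961 over all double missense variants of the same set. In binding it was -1.04 in N, -0.862 in C, -0.682 in NC and -1.01 in PDZ3, against -0.913, -0.669, -0.386 and -0.967. A scaled score above -0.5 was kept by 19.5% of members in N, 26.1% in C, 44.0% in NC and 10.4% in PDZ3 for abundance. In binding these shares were 3.00%, 20.7%, 36.1% and 1.79%. Over all doubles they were 43.4%, 47.3%, 70.9% and 27.0% in abundance and 26.2%, 41.4%, 56.8% and 14.5% in binding. In PDZ3, then, few R312 doubles kept even a middle level in either assay, while in NC more than 1 in 3 did.

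The R312 substitution lowered the score of many partner substitutions further. Against the partner single, the double was lower past the threshold (two-sided normal test, Benjamini-Hochberg adjusted p under 0.05) for 1373 members in N (41.5%), 2013 in C (49.0%), 1403 in NC (41.8%) and 960 in PDZ3 (39.5%) in abundance. Against the R312 single, 43.8%, 56.3%, 44.6% and 39.2% of members were lower. Over all doubles, each set against both of its singles and both comparisons pooled, the shares called lower were 36.2%, 37.2%, 24.6% and 40.7%. In binding 775 (24.5%), 1900 (48.2%), 1294 (36.4%) and 686 (23.2%) members were lower than the partner single. Lower than the R312 single were 19.9%, 79.3%, 63.9% and 15.7%. The pooled shares over all doubles were 34.7%, 49.8%, 41.3% and 34.3%. The double was higher than the partner single for only 9, 13, 10 and 30 members in abundance, and for 27, 109, 81 and 28 in binding. It was higher than the R312 single for 34, 16, 9 and 111 members in abundance and for 39, 47, 14 and 117 in binding. Of the pooled comparisons over all doubles, 3.48%, 1.08%, 1.09% and 3.97% were called higher in abundance and 1.84%, 4.49%, 3.08% and 1.93% in binding.

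Against the sum of both singles, the direction of the calls differed between the constructs. In the abundance of C, 1141 of 4111 members (27.8%) fell below the sum and 128 (3.11%) lay above it, where 15.4% and 6.12% of all doubles did. In NC abundance 1024 (30.5%) fell below and 36 (1.07%) lay above, with 13.1% and 2.24% over all doubles. In N abundance the split was nearly even, with 246 below (7.43%) and 211 above (6.37%), against 8.26% and 13.5% over all doubles. In PDZ3 abundance 211 were below (8.68%) and 583 above (24.0%), against 11.9% and 22.7%. Below-sum calls thus took a larger share of the members than of all doubles in C and NC, and a smaller one in N and PDZ3. With the expected score taken from other doubles at the same sum (a running median), 61 members were below and 104 above in N, 436 and 214 in C, 675 and 133 in NC and 71 and 184 in PDZ3. The share of all doubles called with this expectation was not recorded, so these counts cannot be set against it.

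In binding, 898 members of C (22.8%) were below and 550 (13.9%) above the sum, with 17.7% and 21.5% over all doubles. In NC binding 703 (19.8%) were below and 144 (4.05%) above, with 14% and 10.6% over all doubles. In N binding 27 (0.854%) were below and 917 (29.0%) above, with 7.9% and 19.5%. In PDZ3 binding 13 (0.440%) were below and 1965 (66.5%) above, with 6.61% and 39%. With the running median, 2 were below and 116 above in N, 580 and 360 in C, 448 and 165 in NC and 1 and 43 in PDZ3, again without a recorded share of all doubles. The median deviation from the sum followed the same order: -0.0153 in N, -0.236 in C, -0.335 in NC and 0.151 in PDZ3 for abundance, and 0.369, -0.0457, -0.130 and 0.659 for binding. Over all doubles the medians were 0.0136, -0.0922, -0.0658 and 0.0340 in abundance and 0.0342, 0.000677, -0.0249 and 0.213 in binding.

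Most of the above-sum calls in N, C and PDZ3 were lost when the expected score could not run past the nonsense level. The sum lay under that level for 38.9% of members in N, 18.2% in C, 4.47% in NC and 57.8% in PDZ3 in abundance, and for 80.0%, 31.6%, 13.3% and 90.3% in binding. With the expected score held no lower than the median nonsense score, 34, 44, 19 and 99 members stayed above it in abundance and 80, 236, 105 and 36 in binding, and the median deviation turned to -0.160 in PDZ3 abundance, -0.0816 in N binding and -0.0146 in PDZ3 binding. The below-sum counts changed less, to 200, 1099, 1013 and 286 in abundance and 16, 830, 674 and 4 in binding. With the authors' errors multiplied by 2, the below-sum counts fell to 2, 97, 85 and 31 in abundance and 0, 266, 90 and 0 in binding, so the calls of single members depend strongly on these errors. The median deviations do not use the errors, so this setting cannot test them.

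Pairs of mild singles that made a harmful double were common with C and NC. In C abundance 1497 members joined 2 singles that each scored above -0.2, and 369 of these doubles (24.6%) scored under -0.8, where 6.84% of all such doubles in the set did. In NC abundance it was 679 of 2449 (27.7%), against 6.59%. In C binding it was 76 of 784 (9.69%), against 2.19%, and in NC binding 84 of 1313 (6.40%), against 2.63%. N abundance had 14 of 248 (5.65%), against 1.36%, and PDZ3 abundance 2 of 47 (4.26%), against 6.29%. No member of N or PDZ3 binding had both singles above -0.2. In C abundance the largest shares came with G324 (9 of 11), L323 (98 of 169) and G330 (99 of 186), and the smallest with H372 (0 of 199), D357 (0 of 54) and L353 (1 of 77). These limits of -0.2 and -0.8 were set after the values had been seen, and the shares are given without a test.

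In abundance G324 and F325 of the carboxylate loop gave the lowest 2 medians of any partner in all 4 constructs, and in binding the lowest was I327 in N and C and G324 in NC and PDZ3. L323 lines the hydrophobic pocket that takes the last side chain of the bound tail. With L323 the median double was -1.01 in N, -0.940 in C, -0.771 in NC and -1.10 in PDZ3 for abundance, although the L323 singles had medians of only -0.318, -0.0880, -0.0267 and -0.879. Its abundance deviation was -0.198 in N, -0.545 in C, -0.609 in NC and 0.239 in PDZ3, and below-sum calls took 18.0%, 48.4%, 53.9% and 8.20% of its members. L323 doubles thus fell to the nonsense level in C from singles close to the wild type. Members are named below by the highest and lowest deviation past the threshold among those with a combined error under 0.15, so each passed the test, and the lowest 2 of N abundance were both of this position. R312S/L323V scored -1.12 ± 0.12, against -0.342 for R312S and -0.108 for L323V, a deviation of -0.670 ± 0.12. R312S/L323M scored -1.10 ± 0.113, with a deviation of -0.646 ± 0.114.

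G324, the second glycine of the loop, was harmful by itself in N and PDZ3 (single medians -0.881 and -1.06 in abundance) and milder in C (-0.441) and NC (-0.161). Its doubles were at -1.12 in N, -1.08 in C, -0.970 in NC and -1.16 in PDZ3. In NC this gave the lowest median deviation of any partner, -0.690, with 121 of 264 members below the sum. In C abundance it was -0.339, with 93 of 346 below. R312T/G324P had the lowest deviation in C abundance. It scored -1.30 ± 0.137, against -0.109 for R312T and -0.164 for G324P, and lay -1.03 ± 0.137 from the sum. F325, the phenylalanine of the loop, had abundance doubles at -1.07 in N, -1.05 in C, -0.888 in NC and -1.14 in PDZ3. With singles at -1.13, -1.01, -0.149 and -1.04, its abundance deviation was -0.302 in NC (64 of 244 below) and -0.0712 in C (88 of 341 below). Over the loop as a list, 80 of 922, 346 of 1028, 43.0% of 818 and 36 of 620 members were below the abundance sum in N, C, NC and PDZ3, and 98, 35, 2 and 216 above it.

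Strand 2 runs beside the bound tail, and its partners I327 and G330 gave most of the doubles that fell below the abundance sum in all 4 constructs. For G330 the median abundance single was near the wild type: -0.0924 in N, -0.0633 in C, -0.0290 in NC and -0.190 in PDZ3. The doubles were at -0.857, -0.944, -0.641 and -1.10. The deviation was -0.286 in N, -0.602 in C, -0.538 in NC and -0.210 in PDZ3, with 83 of 328, 253 of 356, 153 of 296 and 63 of 228 members below. In C abundance 71.1% of the G330 members were below, the largest share of any partner in any set. For I327, also in the hydrophobic pocket, the deviation was -0.0679 in N, -0.291 in C, -0.487 in NC and 0.0142 in PDZ3, with 15.8%, 40.2%, 42.4% and 11.7% of members below. I327 singles were at -0.239, -0.143, -0.00666 and -0.583 in abundance and near the nonsense level in binding (-0.964, -0.961, -0.963 and -0.950).

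Of the 1757 substitution pairs measured in all 4 abundance sets, 39 (2.22%) were below the sum in each, where 0.559% of all doubles were. Of these, 18 involved G330, 13 I327, 3 L323, 3 F325, 1 I336 and 1 L353. By mean deviation the first was R312T/G330V, which scored -1.09 ± 0.119 in N, -0.810 ± 0.0979 in C, -1.001 ± 0.181 in NC and -1.41 ± 0.1496 in PDZ3. R312T alone had -0.251, -0.109, 0.00381 and -0.393, and G330V alone -0.221, -0.147, -0.0333 and -0.491. The deviations were -0.621, -0.555, -0.972 and -0.531. 4 members with G330L followed the same pattern, R312Q/G330L, R312F/G330L, R312A/G330L and R312V/G330L. Their deviations ran from -0.511 to -0.284 in N, from -0.922 to -0.692 in C, from -0.790 to -0.742 in NC and from -0.466 to -0.355 in PDZ3. The other named members of this group were R312T/G330M, R312Q/G330P and R312F/I336L. The partner singles of these 8 were mild in N, C and NC, with G330V in N the lowest.

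Strand 3 was represented by I336, a hydrophobic residue. Its abundance doubles stood at -0.797 in N, -0.908 in C, -0.817 in NC and -1.07 in PDZ3, with singles at -0.221, -0.143, -0.0437 and -0.472. Below-sum calls took 5.43% of members in N, 121 of 345 in C, 107 of 269 in NC and 22 of 217 in PDZ3, at median deviations of -0.115, -0.392, -0.609 and -0.000440. In binding, the deviation of I336 was 0.414 in N, -0.108 in C, -0.283 in NC and 0.700 in PDZ3. L353, near strand 4, differed between C and NC in abundance. With singles at -0.698 in C and -0.0412 in NC, the doubles were at -0.921 and -0.852, and the deviation was -0.119 (17.8% below) in C and -0.440 (116 of 284 below) in NC. These medians were taken over different members in C and NC. Over the 180 pairs measured in all 4 abundance sets, the L353 singles were closer, at -0.101 in C and 0.0393 in NC. The deviations of these pairs were -0.225 and -0.472. In binding L353 was among the lowest partners in both, at -0.186 (43.0% below) in C and -0.303 (151 of 328 below) in NC.

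The strongest members of NC abundance joined singles that were both close to the wild type. R312T/L353S scored -1.20 ± 0.140, while R312T had 0.00381 ± 0.00543 and L353S -0.0412 ± 0.00485, a deviation of -1.16 ± 0.140. R312N/G330L scored -1.22 ± 0.142, against -0.0214 for R312N and -0.0429 for G330L, a deviation of -1.16 ± 0.142. R312F/L353S scored -1.15 ± 0.125, with a deviation of -1.12 ± 0.125. Each of the 3 thus went from the wild-type level of both singles to below the nonsense level in the double.

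R354, the other arginine among the partners, had single substitutions that were nearly neutral in all 8 sets. Their median was -0.0142 in N, 0.0404 in C, 0.0435 in NC and -0.00867 in PDZ3 for abundance and -0.0244, 0.0130, 0.00343 and -0.0274 for binding. The doubles with R312 had medians of -0.668, -0.723, -0.524 and -1.01 in abundance and -0.999, -0.571, -0.301 and -0.973 in binding. The deviation was below 0 in each set, at -0.229, -0.506, -0.3996 and -0.334 in abundance and -0.225, -0.319, -0.198 and -0.0671 in binding. No other partner had a negative median deviation from the sum in the binding of N or PDZ3. With the expected score held no lower than the median nonsense score, however, only D357 was positive in N binding (0.0197). In PDZ3 binding only I314 (0.0124), D357 (0.0115) and H372 (0.0109) were then positive. R354 was at -0.0841 there, with 1 member below. Below-sum calls took 1 of 132, 115 of 315, 67 of 252 and 27 of 102 members in abundance and 16 of 212, 158 of 301, 79 of 269 and 8 of 185 in binding.

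With the extensions C and NC, the R354 doubles differed by whether 1 of the 2 arginines was replaced by a related residue. With R312K, the R354 doubles in C abundance had a median of 0.0419 and a deviation of -0.000753 (17 members, 0 below the sum). With another residue for R312 and K, H or Q for R354 the median was -0.278 and the deviation -0.133 (43 members, 1 below). The remaining pairs, apart from those with R354P, had a median of -0.781 and a deviation of -0.574 (237 members, 114 below). In NC abundance the same 3 groups had deviations of 0.0315, -0.0593 and -0.568, with 0 of 17, 0 of 36 and 67 of 185 below. In C binding they had 0.0123, -0.0772 and -0.387, with 0 of 15, 3 of 42 and 155 of 228 below, and in NC binding 0.00383, -0.0150 and -0.263, with 0 of 14, 1 of 36 and 78 of 209 below. In N abundance the deviations were -0.0403, -0.0496 and -0.298, and in N binding -0.106, -0.0386 and -0.256. In PDZ3 they were -0.149, -0.0960 and -0.378 in abundance, over 3, 11 and 82 members, and -0.103, -0.0381 and -0.0860 in binding. The 2 groups with a related residue thus had no fixed order, and in PDZ3 binding R312K was no nearer to 0 than the remaining pairs. The proline R354P was harmful by itself in C abundance (-0.918) and its doubles with substitutions other than R312K had a median deviation of 0.476 (11 of 18 above). These groups were drawn after the values had been seen.

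R354L gave the most below-sum calls in 4 of the 8 sets, with 13 of 18 members in C abundance, 11 of 15 in NC abundance and 8 of 15 in PDZ3 abundance. R312Y/R354L had the lowest deviation of PDZ3 abundance. It scored -1.13 ± 0.0766, against -0.266 for R312Y and -0.0408 for R354L, a deviation of -0.827 ± 0.0779. The lowest 2 members of N binding were R312T/R354L, at -1.06 ± 0.108 and a deviation of -0.543 ± 0.111, and R312N/R354L, at -1.10 ± 0.135 and -0.477 ± 0.137. In C binding the lowest was R312Y/R354I, at -1.04 ± 0.119, against -0.211 for R312Y and 0.0172 for R354I, a deviation of -0.832 ± 0.12. The member with the lowest deviation thus joined R312 to a nearly neutral R354 single in 3 sets.

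D357, an acidic residue close to R354 in the chain, had deviations in the other direction. Its singles were at -0.657 in N, -0.336 in C, -0.0967 in NC and -0.871 in PDZ3 in abundance, and its deviation was positive or near 0: 0.114, 0.0315, -0.0201 and 0.334. In binding the deviation was 0.476 in N, 0.0931 in C, 0.0196 in NC and 0.686 in PDZ3, and 141 of 304, 117 (33.1%), 36 of 349 and 199 of 265 members lay above the sum. In C binding this was the largest count and share of any partner, where 21.5% of all doubles lay above, while in NC binding the D357 share of 10.3% was near the 10.6% of all doubles. With the expected score held at the nonsense level, 95 of the D357 members in C binding and 33 in NC binding still lay above. In N and PDZ3 binding, where every partner but R354 had a positive deviation from the sum, 39 and 10 D357 members then did. The D357 abundance deviation was then -0.0308 in N, -0.0346 in C, -0.0374 in NC and -0.0430 in PDZ3.

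The doubles differed by the residue put in place of D357. D357E, which keeps the acidic charge, gave deviations of -0.311 in C abundance, -0.427 in NC abundance, -0.386 in C binding and -0.197 in NC binding, with 14 of 19 members below the sum in C binding. D357M gave 0.152, 0.0707, 0.171 and 0.0773 in the same sets, D357S 0.109, 0.0805, 0.168 and 0.0944, and D357H 0.0999, 0.0598, 0.145 and 0.0969. In C binding 15 of 19 D357S members and 10 of 18 D357M members lay above. The singles in C binding were at -0.139 for D357E, -0.233 for D357S, -0.0469 for D357M and -0.0928 for D357H. Their R312 doubles had medians of -0.750, -0.255, -0.0744 and -0.146.

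3 members lay above the sum in all 8 sets, of 1196 measured in all (0.251%, against 0.613% of all doubles), and 0 lay below in all 8, against 0.0374%. They were R312L/D357M, R312L/D357S and R312P/L353R. R312L/D357M scored -0.358 ± 0.0639 in N, -0.0751 ± 0.0857 in C, 0.0382 ± 0.0585 in NC and -0.241 ± 0.0966 in PDZ3 abundance, where R312L alone had -0.679, -0.379, -0.172 and -0.883. In binding it scored -0.498 ± 0.0620, -0.0754 ± 0.0259, -0.0533 ± 0.0196 and -0.716 ± 0.122, where R312L alone had -0.877, -0.262, -0.120 and -0.942. The double was thus nearer to the wild type than the R312L single in every set. Its deviations were 0.455, 0.394, 0.275 and 0.735 in abundance and 0.681, 0.244, 0.103 and 0.520 in binding. With the expected score held at the nonsense level they stayed positive in all 8 sets. R312L/D357S had smaller deviations, of 0.187, 0.158, 0.171 and 0.432 in abundance and 0.639, 0.179, 0.0966 and 0.634 in binding. With that same limit R312L/D357S stayed positive too, while R312P/L353R turned negative in N, C and PDZ3 abundance and in N and PDZ3 binding. R312P/L353R was near or under the nonsense level in all 8 sets, from -1.30 to -0.913, with R312P and L353R harmful as singles too.

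I314, on strand 1 close to R312 in the chain, had median doubles above the median of all members in every set, by the most in C and NC. Their abundance medians were -0.868 in N, -0.641 in C, -0.296 in NC and -1.02 in PDZ3, and their binding medians -0.966, -0.444, -0.214 and -0.977. The abundance deviation was 0.111, -0.173, -0.124 and 0.244, with 7 of 265, 21.0% of members, 41 of 285 and 10 of 230 below the sum. R312W/I314V was above the abundance sum in all 4 constructs. It scored -0.260 ± 0.151 in N, -0.387 ± 0.0970 in C, -0.0908 ± 0.0679 in NC and -0.498 ± 0.118 in PDZ3, against -0.790, -0.853, -0.463 and -1.51 for R312W. In NC binding, by contrast, R312L/I314D had the lowest deviation, with a score of -1.05 ± 0.147, against -0.120 for R312L and -0.0451 for I314D (deviation -0.888 ± 0.147).

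The partners in helix 2 separated the assays. H372 contacts the bound tail, and its singles were neutral in abundance (0.00421 in N, -0.00622 in C, -0.00653 in NC and -0.00610 in PDZ3) and low in binding (-0.710, -0.799, -0.602 and -0.806). In abundance its R312 doubles lay near the R312 single, at -0.336, -0.281, -0.0986 and -0.521, with deviations of 0.0136, -0.0709, -0.0316 and 0.0799. Below-sum calls took 0 of 306, 4.09%, 17 of 308 and 2 of 172 members, under the 8.26%, 15.4%, 13.1% and 11.9% of all doubles. A376 in the same helix gave 0 of 60, 8 of 321, 7 of 199 and 11 of 109 below in abundance, at deviations of -0.116, -0.0746, -0.0413 and 0.0399. In binding the H372 doubles were at -1.06, -0.905, -0.740 and -0.989. In C and NC abundance the median deviation of H372 was thus nearer to 0 than those of L323, G324, I327 and G330.

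R312W/H372L lay above the abundance sum in all 4 constructs, at -0.462 ± 0.105 in N, -0.283 ± 0.0919 in C, -0.130 ± 0.0923 in NC and -0.447 ± 0.169 in PDZ3, with R312W alone at -0.790, -0.853, -0.463 and -1.51. Together with R312W/I314V, R312P/G324S, R312P/L353R, R312L/D357M and R312L/D357S it made up the 6 members above in all 4 abundance sets (0.341%, against 1.04% of all doubles). In binding 37 of 2007 members (1.84%, against 5.21%) were above in all 4 sets and 0 were below in all 4, against 0.365%. Of the 37, 11 involved D357, 9 I327 and 8 L323. The 8 with the largest mean deviation were R312P, R312C, R312Y and R312L with L323P, R312E/L323Q, and R312P/I327R, R312P/I327P and R312W/I327G. All of these 8 but R312P/I327P turned negative in N with the expected score held at the nonsense level, and R312P/I327R, R312P/I327P and R312W/I327G did so in C. Most of them scored near the nonsense level in N, C and PDZ3, and from -1.10 to -0.423 in NC. R312Y/L323P in PDZ3 stood higher, at -0.367 ± 0.160, with R312Y at -0.796 and L323P at -1.13.

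By partner class, glycines had the lowest abundance doubles. Their medians were -0.997 in N, -1.02 in C, -0.857 in NC and -1.12 in PDZ3, and 88 of 625, 346 of 702, 274 of 560 and 67 of 432 members fell below the sum. Aliphatic or aromatic partners had -0.952, -0.874, -0.693 and -1.07, with 157 of 1902, 661 of 2401, 635 of 1905 and 114 of 1489 below. Charged partners, R354 and D357, had -0.844, -0.725, -0.425 and -0.989, with 1, 120, 98 and 28 below. The only polar partner was H372. No member paired R312 with R313, G322, F337, F340, L342 or R368, so these positions give no value here.

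The doubles were higher or lower by the residue placed at R312. In abundance, doubles with R312K had a median of -0.431 in N, -0.293 in C, -0.0963 in NC and -0.799 in PDZ3, the highest of the 19 in each. Doubles with R312H followed in C and NC, at -0.600 and -0.270. Doubles with R312P had -1.10, -0.994, -0.879 and -1.16. In binding the R312K doubles were at -0.936, -0.617, -0.447 and -0.966 and the R312P doubles at -1.11, -0.958, -0.920 and -1.01. R312K was thus the mildest substitution of R312 in doubles as in singles, apart from the R312F single of NC binding.

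The share below the sum was not highest for the most harmful residues. In C abundance it was 44.1% of 227 members with R312S, 39.9% of 228 with R312T and 38.6% of 228 with R312L, but 13.8% of 224 with R312K, 1.69% of 177 with R312D and 0% of 212 with R312W. These shares depend on the errors and do not rank the sizes of the deviations. R312S, R312T and R312L had the smallest median errors there, 0.111, 0.134 and 0.127, at median deviations of -0.240, -0.272 and -0.253. R312N had a median deviation of -0.361 at an error of 0.200, with 30.0% below. In NC abundance R312S had 54.2%, R312L 49.0% and R312T 48.4%, against 11.7% with R312K and 3.45% with R312W. R312K doubles, whose single is neutral in abundance, had a median deviation of -0.106 in C and -0.0866 in NC, and those of R312T had -0.272 and -0.397. Above-sum calls were most frequent with R312W in PDZ3 abundance (73.4% of 143) and with R312M in PDZ3 binding (94.0% of 167), whose singles were the lowest of the 19 in those sets. Among the 8 classes of new residues, below-sum calls in C abundance took 57 of 391 members with acidic residues, 33.4% of 1101 with aliphatic, 129 of 646 with aromatic, 72 of 224 with glycine, 53 of 209 with histidine, 31 of 224 with lysine, 385 of 1098 with polar residues and 46 of 218 with proline.

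A few members with a high deviation kept a middle or high score. In PDZ3 abundance R312E/G324C scored -0.352 ± 0.0973, with R312E at -0.878 and G324C at -1.13 (deviation 1.66 ± 0.0998). R312G/G324F scored -0.413 ± 0.0865 there, with R312G at -0.8003 and G324F at -1.16, and R312G/I327D -0.352 ± 0.0310, with I327D at -1.04. In C binding R312G/G324Y scored -0.180 ± 0.0374, close to R312G at -0.252, while G324Y had -1.01 (deviation 1.09 ± 0.0399). In N binding R312W/G330I scored -0.263 ± 0.130, with its singles at -0.900 and -0.921. In NC binding R312V/H372N scored -0.368 ± 0.111, with R312V at -0.0611 and H372N at -1.26, so it lay below its R312 single. Among doubles with both singles under -0.5, a score above -0.5 was reached by 0% of members in N, 2 of 99 in C and 9 of 650 in PDZ3 abundance, and by 16 of 2060 in N, 3 of 209 in C and 18 of 2221 in PDZ3 binding. No member of NC had both singles under -0.5.

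Several other named members above the sum joined a proline or tryptophan in place of R312 to a further harmful change and scored at the nonsense level. In N abundance these were R312P/L323R, R312P/F325R and R312P/G324V, with scores from -1.10 to -1.06 and deviations from 1.02 to 1.06. In C abundance they were R312W/I327D, R312W/F325G and R312W/F325R, with deviations from 0.763 to 0.852. In NC abundance R312Q/D357P scored -0.498 ± 0.146, against -1.08 for D357P (deviation 0.590 ± 0.146), and R312L/D357P -0.776 ± 0.0981. In PDZ3 binding R312M/I336T, R312M/G330M and R312M/I336M had deviations from 1.496 to 1.56 and share the low R312M single. Members with R312K, by contrast, had the lowest 2 deviations of PDZ3 binding. R312K/L353V scored -0.982 ± 0.128, with R312K at -0.281 and L353V at -0.0922, a deviation of -0.610 ± 0.135.

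Deviations were then compared between each extended construct and PDZ3, on the same members. All of these contrasts share the PDZ3 values. In abundance the deviation in N was lower than in PDZ3 for 92 of 2048 members (4.49%) and higher for 15 (0.732%), where 5.42% and 4.13% of all doubles were. In C it was lower for 496 of 2372 (20.9%) and higher for 5 (0.211%), against 16.1% and 3.44%. In NC it was lower for 649 of 2025 (32.0%) and higher for 14 (0.691%), against 21.1% and 6.71%. With the N extension alone the lower share was near that of all doubles, and the higher share was under it.

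In binding the deviation in N was lower than in PDZ3 for 83 of 2319 members (3.58%) and higher for 4 (0.172%), against 4.61% and 0.704% of all doubles. In C it was lower for 1588 of 2773 (57.3%) and higher for 2 (0.0721%), against 26.8% and 5.35%. In NC it was lower for 1489 of 2550 (58.4%) and higher for 1 (0.0392%), against 30% and 5.33%. The sum in PDZ3 binding lies under the nonsense level for most members, and its part in these differences cannot be told apart from that of the extension on this scale. With the expected score taken from other doubles at the same sum, 94 members in C and 99 in NC were lower and 23 and 9 higher in binding, and 83 and 241 lower and 12 and 13 higher in abundance. For these counts too the share of all doubles was not recorded.

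In abundance the partners that differed most between NC and PDZ3 were those of the loop. For G324 the abundance deviation was -0.660 in NC and 0.495 in PDZ3 over the same 162 members, and 106 were lower in NC. For L323 it was -0.647 in NC and 0.236 in PDZ3, with 76 of 161 lower. For R354 it was -0.512 in NC and -0.341 in PDZ3, with 5 of 76 lower, and for H372 -0.0206 and 0.0557, with 16 of 157 lower. For G330 it was -0.556 and -0.247, with 51 of 193 lower. R354 and G330 were thus negative with and without the extensions. In C abundance R354 had -0.528, against -0.333 in PDZ3, with 4 of 97 lower. With the expected score held at the nonsense level, the PDZ3 abundance deviation over all their members was -0.161 for G324 and -0.157 for L323. With the running median it was 0.00895 and -0.00540. The positive PDZ3 values of G324 and L323 thus depended on how the expected score was set.

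Single members showed both directions. R312S/L323R had a deviation of -0.951 in NC and 0.773 in PDZ3 abundance, a difference of -1.72 ± 0.127. It scored -1.17 in NC and -0.735 in PDZ3. R312L/L323S had deviations of -0.645 in C and 0.725 in PDZ3, a difference of -1.37 ± 0.122. Its deviation was lower in N too, at -0.0183 (difference -0.743 ± 0.129). The double itself scored under the nonsense level in each, at -1.20 in C, -1.24 in N and -1.07 in PDZ3. In the other direction, R312T/I327Y scored -0.235 in N and -0.0391 in NC, against -0.995 in PDZ3 abundance. Its deviation differed by 0.590 ± 0.124 in N and by 0.511 ± 0.116 in NC. R312V/D357S scored -0.331 in N and -0.0128 in NC, against -1.001 in PDZ3, with differences of 0.454 ± 0.125 and 0.423 ± 0.122. In binding R312K/L353V scored -0.0945 in C and -0.0161 in NC, against -0.982 in PDZ3, with differences of 0.551 ± 0.147 and 0.619 ± 0.138. The N contrast in binding had R312T/F325R as its highest, with -0.404 in N and -1.06 in PDZ3 (difference 0.552 ± 0.135).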

How the data were processed

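The deposited table held, per the file headers, a score the authors call fitness with its error, and a growth rate with its error, for each variant in each library and assay. It is 1 merged value per variant from 3 input and 3 output libraries. How the authors merged them, and the log base of the deposited score, are not stated in the files or labels. Per the submitters' processing notes, cutadapt and FastQC were used, with no version given. Read counts were not used here, so the depth is unknown.

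For each double the deviation was the double minus both singles plus the wild type, with errors combined in quadrature. A two-sided normal test was adjusted by Benjamini-Hochberg over all doubles of the set with both singles measured, at 0.05. Doubles were set against each single, and scaled deviations between constructs, in the same way. These tests rest on the authors' errors and not on a spread between cultures seen here. The wild type of NC had only a placeholder error, so that of its growth rate was converted. The running median took 501 doubles at the same sum. On simulated scores with known deviations, 0.885% to 7.41% of calls were false. The noise was drawn from the same errors that the test used, so this cannot show whether the authors' errors are right.

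Named members were, per set and per contrast, the 3 highest and 3 lowest past the threshold with a combined scaled error under 0.15, and up to 8 called in one direction in every construct of one assay or in all 8 sets. Named positions were the partners and a few further residues. The members, lists and tests were chosen with earlier results of these data known. Python 3.11.15, numpy 2.4.6, pandas 2.3.3 and scipy 1.17.1 were used.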

Additional observations from a re-analysis of the deposited data

Results flagged for a closer look

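Deviations from the sum differed between constructs by a test of the difference itself (two-sided normal test, Benjamini-Hochberg adjusted over all doubles in both constructs). In abundance 92 members (4.49%) were lower and 15 (0.732%) higher in N than in PDZ3, against 5.42% and 4.13% of all doubles. In C 496 (20.9%) were lower and 5 (0.211%) higher, against 16.1% and 3.44%. In NC 649 (32.0%) were lower and 14 (0.691%) higher, against 21.1% and 6.71%. In binding 83 (3.58%) were lower and 4 (0.172%) higher in N, against 4.61% and 0.704% of all doubles. In C 1588 (57.3%) were lower and 2 (0.0721%) higher, against 26.8% and 5.35%. In NC 1489 (58.4%) were lower and 1 (0.0392%) higher, against 30% and 5.33%. The N shares were thus under those of all doubles in both assays. All 6 contrasts share the PDZ3 values.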

How the results depend on the processing

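No paired analysis was possible because the table holds no per-culture values, and for that reason no culture could be left out in turn. The counts of calls rest most on the errors and on how the expected score is set. With the authors' errors multiplied by 2, the members above the sum were 13 (N), 2 (C), 0 (NC), 177 (PDZ3) in abundance and 141 (N), 149 (C), 18 (NC), 885 (PDZ3) in binding, those below 2 (N), 97 (C), 85 (NC), 31 (PDZ3) in abundance and 0 (N), 266 (C), 90 (NC), 0 (PDZ3) in binding, those lower than the partner single 246 (N), 546 (C), 224 (NC), 393 (PDZ3) in abundance and 110 (N), 878 (C), 309 (NC), 236 (PDZ3) in binding, and those higher than it 0 (N), 0 (C), 0 (NC), 15 (PDZ3) in abundance and 4 (N), 26 (C), 12 (NC), 0 (PDZ3) in binding. Between constructs, the members higher than in PDZ3 then numbered 0 (N), 0 (C) and 0 (NC) in both assays, and the lower ones 0 (N), 42 (C), 77 (NC) in abundance and 0 (N), 390 (C), 384 (NC) in binding. With the expected score no lower than the nonsense median, 34 (N), 44 (C), 19 (NC), 99 (PDZ3) in abundance and 80 (N), 236 (C), 36 (PDZ3) in binding lay above and 16 (N), 4 (PDZ3) in binding below, and the median deviation moved to -0.16 (PDZ3) in abundance and -0.0816 (N), -0.0146 (PDZ3) in binding. With the running median of doubles as the expectation, 104 (N), 214 (C), 133 (NC), 184 (PDZ3) in abundance and 116 (N), 360 (C), 43 (PDZ3) in binding lay above and 61 (N), 436 (C), 675 (NC), 71 (PDZ3) in abundance and 2 (N), 580 (C), 448 (NC), 1 (PDZ3) in binding below, the median deviation moved to -0.00555 (N), 0.00406 (PDZ3) in binding, and 6 (N), 12 (C) in abundance and 7 (N), 23 (C), 9 (NC) in binding had deviations higher than in PDZ3 and 28 (N), 83 (C), 241 (NC) in abundance and 0 (N), 94 (C), 99 (NC) in binding lower. With the product of growth rates, 35 (N), 24 (C), 14 (NC), 86 (PDZ3) in abundance and 33 (N), 189 (C), 88 (NC), 24 (PDZ3) in binding lay above and 7 (N), 2 (PDZ3) in binding below. With only combined errors under 0.15, which left 606 to 2790 members a set, 7.92% (N), 5.50% (C), 1.91% (NC), 40.1% of 827 (PDZ3) in abundance and 65.8% (N), 17.5% (C), 6.02% (NC), 82.4% (PDZ3) in binding lay above and 16.3% (N), 42.9% (C), 35.2% (NC), 20.9% (PDZ3) in abundance and 3.63% (N), 29.6% (C), 28.0% (NC), 0.874% (PDZ3) in binding below. As counts these were 89 (N) and 84 (C) above and 655 (C) and 479 (NC) below in abundance, and 399 (N) and 1038 (PDZ3) above in binding. In score units, 28 (N) in abundance and 5 (NC) in binding had deviations higher than in PDZ3. The cause of these shifts was not tested beyond what each setting changes by construction. Shares of all doubles were not recorded under these settings, so the counts are compared only with those of the main setting.

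Deviations of named members that turned negative with the expected score no lower than the nonsense median were R312P/F325R at -0.0756 (N abundance), R312P/G324S at -0.0222 (N abundance) and -0.0893 (PDZ3 abundance), R312P/G324V at -0.105 (N abundance), R312P/L323R at -0.0608 (N abundance), R312P/L353R at -0.227 (N abundance) and -0.0481 (C abundance) and -0.304 (PDZ3 abundance) and -0.198 (N binding) and -0.21 (PDZ3 binding), R312W/F325G at -0.121 (C abundance), R312W/F325R at -0.165 (C abundance), R312C/L323P at -0.064 (N binding), R312E/L323Q at -0.112 (N binding), R312L/L323P at -0.169 (N binding), R312P/I327R at -0.102 (N binding) and -0.161 (C binding) and -0.104 (PDZ3 binding), R312P/L323P at -0.124 (N binding) and -0.0436 (PDZ3 binding), R312W/I327G at -0.0279 (N binding) and -0.166 (C binding), R312Y/L323P at -0.177 (N binding), R312P/I327P at -0.189 (C binding) and -0.0964 (NC binding) and -0.0294 (PDZ3 binding), R312M/I336M at -0.0804 (PDZ3 binding). With the running median those that turned negative were R312P/L353R at -0.113 (N abundance) and -0.107 (PDZ3 abundance) and -0.0912 (N binding) and -0.195 (PDZ3 binding), R312W/F325G at -0.0186 (C abundance), R312W/F325R at -0.0737 (C abundance), R312E/L323Q at -0.0244 (N binding), R312L/L323P at -0.0635 (N binding), R312P/L323P at -0.0324 (N binding) and -0.0199 (PDZ3 binding), R312Y/L323P at -0.107 (N binding), R312P/I327P at -0.194 (C binding) and -0.137 (NC binding) and -0.00844 (PDZ3 binding), R312P/I327R at -0.165 (C binding) and -0.0801 (PDZ3 binding), R312W/I327G at -0.177 (C binding), R312M/I336M at -0.0601 (PDZ3 binding). With the product of growth rates they were R312P/G324S at -0.000226 (PDZ3 abundance), R312P/I327P at -0.0551 (C binding) and -0.00252 (NC binding), R312P/I327R at -0.0311 (C binding), R312W/I327G at -0.0472 (C binding).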
